A study of Macaca nemestrina with 15 samples.

Results

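The genes described here are 48 immediate early and NF-kappa-B response genes, read from the blood RNA of macaques that received the antiretroviral islatravir (ISL). They were chosen by name, with earlier results of these data known, as genes that blood cells switch on within minutes to hours of a stimulus. A feature of the count table was taken when its name equalled one of them. Of the 48, 44 were found among the 28865 features of the table. *NFKBIE*, *JUN*, *JUND* and *CCL3* are not analysed here. A filter on low counts kept 43 of the 44 among 12880 features tested, and *EGR3* was the one below it.

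Immediate early genes are transcribed from factors already present in the cell, without new protein synthesis, after signals through MAP kinases, SRF and CREB. Their products include the AP-1, EGR and NR4A transcription factors and the phosphatases and mRNA decay factors that end the response. NF-kappa-B dimers are held in the cytoplasm by inhibitor proteins and enter the nucleus when those are degraded, and they then induce their own inhibitors, among them *NFKBIA* and *TNFAIP3*. In blood, monocytes and lymphocytes both use these genes.

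The data were RNA-seq read counts from peripheral blood mononuclear cells (PBMCs) of 5 female pig-tailed macaques (*Macaca nemestrina*), each sampled at 3 time points. Blood was taken before treatment (labelled Control), at week 12 of weekly oral ISL at 30 mg/kg, and at week 18. The study's methods place week 18 at 6 weeks after the 12 weekly doses ended. A figure legend of the study instead gives an earlier week and a shorter time after dosing for this sample. The animals' ages are not given in the sources used here, every animal was treated, and no untreated animals were sequenced, so time and treatment cannot be told apart. By the dates that the names of the libraries carry, the second sample came 56 or 57 days and the third 84 days after the first, which are shorter intervals than the labels give. The labels are used below, and by these dates the time of either sample relative to the last dose is not settled. Animals Z15303, Z15339 and Z15408 shared dates at every time point. Each library held 5610597 to 10379572 reads assigned to genes (median 8871860).

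PBMCs are a mixture, so fewer cells of a type and less RNA per cell cannot be told apart. T cell, NK cell and monocyte markers were present in all libraries. The summed level of 9 B-cell markers ranged from 255 to 1072 CPM at pre-treatment, 145 to 542 at week 12 and 187 to 449 at week 18, and was lower than before treatment in 5 of 5 animals at both later time points. The summed level of 9 of the 10 monocyte markers (1 is not analysed here) ranged from 2241 to 4290 CPM at pre-treatment, 2293 to 3648 at week 12 and 2599 to 5450 at week 18, and was lower in 3 of 5 animals at week 12 and in 1 of 5 at week 18. No B-cell or monocyte marker measured was at 0 in all libraries.

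The comparisons asked how the genes differed among pre-treatment and the samples labelled week 12 and week 18. Without an animal term, edgeR's quasi-likelihood test called 0 of the 43 members at an adjusted p under 0.05 in any of the 3 comparisons, where it also called 0% of all features. At an unadjusted p under 0.05, 3 members stood out at week 12 (*NFKBIZ*, *REL* and *ATF3*, with 1.61% of all features past this threshold), 5 at week 18 (*NFKBIZ*, *NR4A2*, *NR4A3*, *IER2* and *KLF6*, with 1.69%) and 2 between week 18 and week 12 (*FOS* and *ATF3*, with 0.505%). *NR4A3* had 1 to 5 counts per library at week 18 and passed the filter through the groups where it was higher. The libraries of an animal deviated together, so each test was also run with the animal as a block. With the block edgeR again called 0 members, while it called 0.00776% of all features at week 12, 0.00776% at week 18 and 0% between the later time points. DESeq2's Wald test with the block called 1 member at week 12 (0.21% of all features were called), 2 at week 18 (0.334%) and 0 between week 18 and week 12 (0.00776%). *NFKBIZ* was called at both time points and *DUSP5* at week 18, all of them lower than before treatment.

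In edgeR's block fit, 6 members were lower at week 12 with an unadjusted p under 0.05, against 3.25% of all features, and 0 were higher, against 1.44%. The lower ones were *NFKBIZ*, *REL*, *ATF3*, *DUSP5*, *KLF4* and *KLF10*. The study had listed *NFKBIZ* and *DUSP5* as differentially expressed in these same libraries. At week 18, 5 were lower (3.78% of all features) and 2 were higher (2.07%). *NFKBIZ*, *REL* and *DUSP5* were lower again, together with *NR4A2* and *NR4A3*, and *IER2* and *KLF6* were higher. *NR4A3* passed the filter on low counts through the groups where it was high (1 to 5 counts per library at week 18), and 4 were lower without it. Between week 12 and week 18, 1 was lower at the later time point (1.01%) and 3 were higher (1.16%), namely *NR4A2* on one side and *FOS*, *ATF3* and *KLF4* on the other. Without Z13076, in which many members were lower at week 12, the block fit gave 5 lower and 2 higher members at week 12, where 5.63% and 4.06% of all features were lower and higher (a count chosen after seeing the data). At week 18 it gave 5 and 2, against 6.16% and 4.46%, and between week 12 and week 18 it gave 2 and 3, against 1.07% and 0.766%. *NR4A3* is among the lower members in both of these counts. Leaving out 1 animal ended the unadjusted pass of *KLF4* and *KLF10* at week 12, of *REL*, *IER2* and *KLF6* at week 18, and of *NR4A2*, *FOS* and *KLF4* between the later time points. A second count needs no model. At week 12, 5 members were lower in 5 of 5 animals (3.46% of all features were) and 2 were higher in 5 of 5 (2.24%). At week 18, 4 were lower in 5 of 5 (3.49%), or 3 without *NR4A3*, and 2 were higher (3.04%), and between week 12 and week 18, 0 were lower in all animals (2.87%) and 3 were higher (2.97%).

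*NFKBIZ* encodes the nuclear inhibitor protein IκBζ, which binds NF-kappa-B subunits on chromatin and is needed for a second wave of inflammatory genes. Before treatment it had 92.8 CPM in Z15228, 142 in Z13076, 175 in Z15339, 195 in Z15303 and 197 in Z15408. At week 12 it had 73.1, 67.4, 118, 147 and 100 CPM in the same order of animals, which is the order used throughout. At week 18 it had 72.6, 94.5, 94.7, 135 and 116 CPM. Every animal was lower at both later time points than before treatment, although the groups overlapped, since Z15228 started below the later levels of most others. The means with their SD (n = 5) were 160 ± 43.7 CPM at pre-treatment, 101 ± 32.9 at week 12 and 102.5 ± 23.7 at week 18, from 560 to 1758 counts per library.

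**Figure D1:**
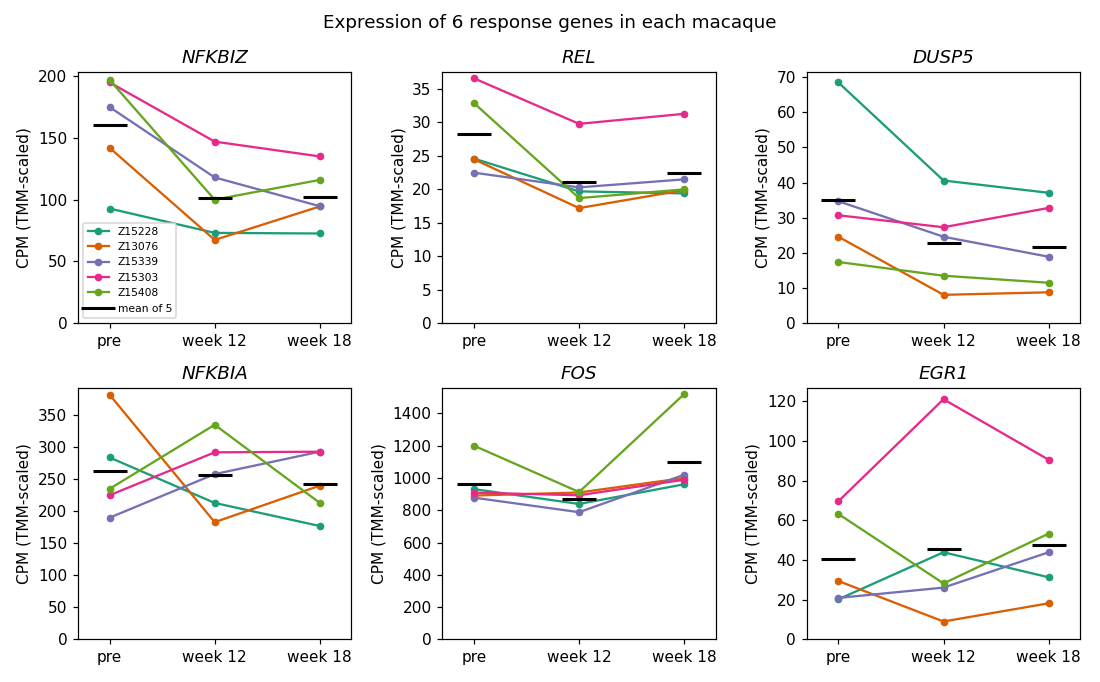
Expression of *NFKBIZ*, *REL*, *DUSP5*, *NFKBIA*, *FOS* and *EGR1* in CPM after TMM scaling (vertical axes, from 0) at the 3 time points (horizontal axes). Each coloured line is 1 of 5 macaques and the black bar is their mean. The *NFKBIZ* and *REL* lines run downward from pre-treatment to week 12 in 5 of 5 animals, while the *NFKBIA* and *EGR1* lines cross.

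The log2 fold change of *NFKBIZ* at week 12 was −0.67 with a standard error of 0.24 by edgeR with time point alone (adjusted p = 1). With the block it was −0.67 with a standard error of 0.12 (edgeR adjusted p = 0.101), a level of 0.629 times that before treatment, and DESeq2's block test gave an adjusted p of 0.000938. At week 18 the value was −0.65 ± 0.24 without the block (edgeR adjusted p = 1) and −0.63 ± 0.12 with it (SE; edgeR adjusted p = 0.0599), and DESeq2's block test gave an adjusted p of 0.00167. At week 18 the DESeq2 call was lost without Z15339 (adjusted p = 0.0865), and edgeR with the block made the call without Z13076 (adjusted p = 0.0493). The study named *NFKBIZ* for its underexpression in these same libraries, so its direction is not independent evidence. Ranked by the p of edgeR's block fit, it was 4 of the 12880 features at week 12 and 14 at week 18.

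Within animals, *NFKBIZ* differed by −0.67 on average at week 12 (SD 0.33, n = 5, log2 CPM) and by −0.62 at week 18 (SD 0.21). An exact two-sided sign-flip permutation test gave p = 0.063 at both time points, the smallest p that 5 animals allow. From week 12 to week 18 the mean difference was 0.05 (SD 0.31, exact sign-flip permutation p = 0.75), higher in 2 animals and lower in 3. With the B-cell marker score as a further term in edgeR's block fit, the log2 fold change of *NFKBIZ* was −0.68 ± 0.22 at week 12 and −0.64 ± 0.23 at week 18 (SE, adjusted p = 1 at both). With the monocyte marker score it was −0.64 at week 12 (edgeR adjusted p = 0.142) and −0.69 at week 18 (edgeR adjusted p = 0.0694). The size of the difference was much the same beside either score, with a wider error beside the B-cell score. B-cell marker sums were lower in 5 of 5 animals at both later time points. This fit therefore separates the B-cell score poorly from the time point, and the part of cell content was not tested.

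**Figure D2:**
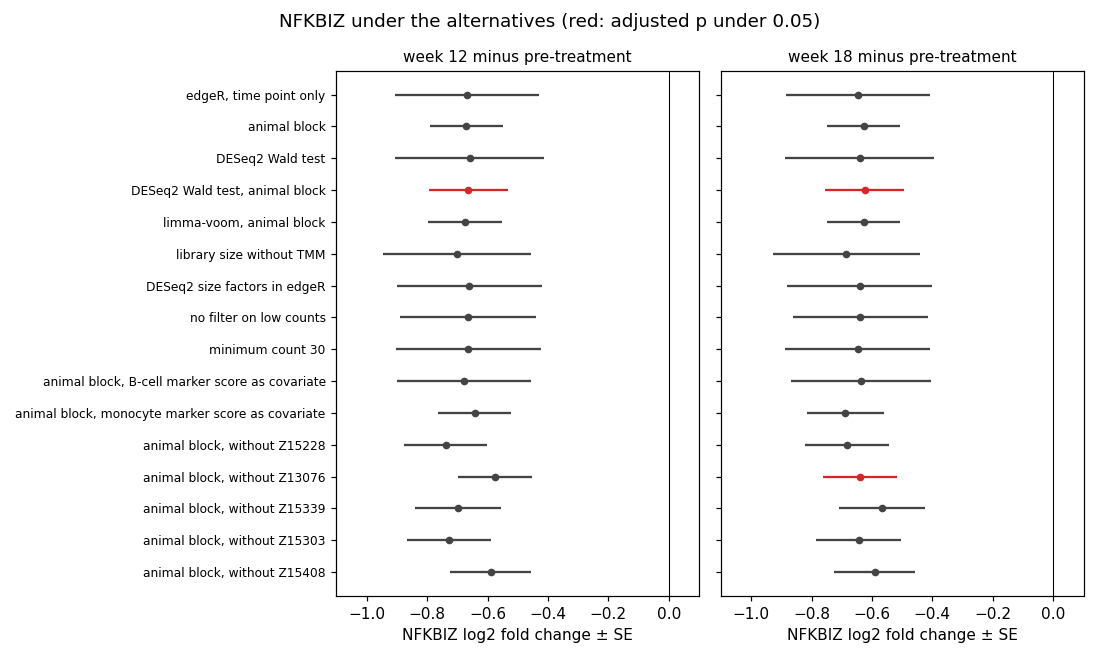
Log2 fold change of *NFKBIZ* against pre-treatment (horizontal axes, point ± SE) at week 12 (left) and week 18 (right) under 16 settings of the analysis (vertical axis). Red points have an adjusted p under 0.05. All points lie between −0.74 and −0.57, and the red ones are DESeq2 with the animal block at both time points and edgeR with the block without Z13076 at week 18.

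Of the 5 NF-kappa-B subunits, *REL*, which encodes the lymphocyte-rich subunit c-Rel, was lower in 5 of 5 animals at both later time points. It had 24.6, 24.5, 22.5, 36.6 and 32.9 CPM at pre-treatment, 19.7, 17.2, 20.3, 29.8 and 18.7 at week 12, and 19.4, 19.9, 21.5, 31.3 and 20 at week 18. Its log2 fold change in edgeR's block fit was −0.42 ± 0.13 at week 12 (SE, adjusted p = 0.569) and −0.34 ± 0.13 at week 18 (adjusted p = 0.746). Without the block the values were −0.42 ± 0.19 (edgeR adjusted p = 1) and −0.34 ± 0.19 (edgeR adjusted p = 1). *REL* therefore did not pass after adjustment in either fit, and its largest within-animal difference was in Z15408. With the B-cell marker score as a term in the block fit the values of *REL* were −0.38 ± 0.23 and −0.30 ± 0.24 (SE, edgeR adjusted p = 1 at both). As for *NFKBIZ*, this fit separates the score poorly from the time point.

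*RELA*, which encodes the p65 activating subunit, had 138, 189, 145, 146 and 128 CPM at pre-treatment, 142, 156, 142, 136 and 144 at week 12, and 130, 161, 144, 136 and 151 at week 18. *NFKB1*, the source of the p50 subunit, had 102, 95.7, 120, 122 and 130 CPM at pre-treatment, 112, 113, 101, 97.8 and 113 at week 12, and 128, 115, 101, 94.2 and 120 at week 18. Both genes overlapped between time points, and their log2 fold changes against pre-treatment lay between −0.09 and −0.03 without the block. *NFKB2*, the source of the p52 subunit of the alternative pathway, had 51.6, 44, 56, 63.9 and 59.9 CPM at pre-treatment, 52.2, 37.3, 52.7, 59.3 and 62.8 at week 12, and 44.4, 41.4, 52, 47.3 and 53 at week 18. It was lower in 5 of 5 animals at week 18, by a log2 fold change of −0.20 ± 0.10 (SE, edgeR block adjusted p = 0.856). *RELB*, the partner of p52, had 34.4, 27.4, 25.3, 25.2 and 25.5 CPM at pre-treatment, 32.6, 21.2, 25.7, 19.2 and 31.1 at week 12, and 27, 23.9, 30.2, 22.5 and 35.8 at week 18. *RELB* moved in both directions among the animals at both time points.

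The inhibitors and feedback genes other than *NFKBIZ* gave no such direction. *NFKBIA*, which encodes IκBα, the inhibitor that NF-kappa-B itself induces, had 284, 382, 190, 225 and 235 CPM at pre-treatment, 213, 183, 258, 292 and 335 at week 12, and 177, 240, 293, 293 and 213 at week 18. At week 12 it was lower in 2 animals and higher in 3, with a log2 fold change of −0.05 ± 0.20 (SE, edgeR block adjusted p = 0.992), and at week 18 lower in 3 and higher in 2. *BCL3*, another nuclear inhibitor protein, had 87.8, 115, 56.9, 79.8 and 59.1 CPM at pre-treatment, 77, 62.8, 62.3, 71.5 and 74 at week 12, and 82.1, 75.2, 73.5, 71 and 97.5 at week 18. *TNFAIP3*, which encodes the deubiquitinase A20, had 130, 184, 107, 113 and 157 CPM at pre-treatment, 117, 190, 113, 86.9 and 193 at week 12, and 86.1, 99, 132, 114 and 161 at week 18. Both had animals on either side of their own pre-treatment level at each time point.

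*TNFAIP2*, a TNF-induced gene, was higher in 5 of 5 animals at week 12 and in 2 of 5 at week 18, with log2 fold changes of 0.21 ± 0.12 and 0.24 ± 0.12 (SE, edgeR block adjusted p = 0.982 and adjusted p = 0.856). *BIRC3*, a ubiquitin ligase of the TNF receptor complex, ranged from 25 to 86.4 CPM over the libraries and was higher in 3 of 5 animals at both time points. *TRAF1*, an adaptor of the same receptors, ranged from 22.5 to 44.5 CPM and was higher in 3 of 5 animals at week 12 and in 2 at week 18.

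Among the AP-1 genes, which encode leucine zipper factors that bind DNA in pairs, *FOS* and *ATF3* had higher levels after treatment ended than during it in 5 of 5 animals. *FOS* encodes the founding member of the family. *FOS* had 931, 891, 878, 909 and 1200 CPM at pre-treatment, 839, 910, 788, 893 and 913 at week 12, and 961, 1000, 1020, 989 and 1520 at week 18. The week 18 values lay above all week 12 values. The log2 fold change from week 12 to week 18 was 0.34 ± 0.14 without the block (SE, edgeR adjusted p = 1) and 0.32 ± 0.11 with it (edgeR adjusted p = 1). The rise was largest in Z15408 (0.73), and without that animal the values were 0.21 ± 0.10 (edgeR adjusted p = 1) and 0.21 ± 0.10 (edgeR block adjusted p = 1). *FOS* was also higher at week 18 than before treatment in 5 of 5 animals, by 0.18 ± 0.11 on the log2 scale (SE, edgeR block adjusted p = 0.881).

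*ATF3*, which encodes a stress-induced repressor, was lower in 5 of 5 animals at week 12 than before treatment and higher in 5 of 5 at week 18 than at week 12. It had 11.9, 16.1, 12, 18 and 16.9 CPM at pre-treatment, 9.85, 8.78, 11.4, 10.9 and 13.5 at week 12, and 14, 11.8, 13.5, 14.3 and 19.6 at week 18. The log2 fold change at week 12 was −0.46 ± 0.18 without the block (SE, edgeR adjusted p = 1) and −0.46 ± 0.15 with it (edgeR adjusted p = 0.696). From week 12 to week 18 it was 0.43 ± 0.18 (edgeR adjusted p = 1) and 0.42 ± 0.15 (edgeR block adjusted p = 1), and at week 18 against pre-treatment −0.04 ± 0.15 (SE, edgeR block adjusted p = 0.982). The counts of *ATF3* were 59 to 177 per library.

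*JUNB*, a Jun protein that partners FOS, had 1200, 1050, 847, 1070 and 778 CPM at pre-treatment, 1050, 596, 1060, 859 and 726 at week 12, and 1100, 1160, 883, 970 and 1040 at week 18. It was lower in 4 of 5 animals at week 12, with a log2 fold change of −0.20 ± 0.15 (SE, edgeR block adjusted p = 0.982). *FOSB* ranged from 5.29 to 28.6 CPM, *FOSL2* from 62.4 to 164 and *MAFF*, a small Maf protein without an activation domain, from 3.23 to 11.4. Each of these 3 genes had animals that were higher and animals that were lower at both time points.

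The EGR genes encode zinc finger factors that respond to growth factor and antigen receptor signals, and they varied among animals in opposite directions. *EGR1* had 20.2, 29.4, 20.9, 69.6 and 63.2 CPM at pre-treatment, 43.9, 9.02, 26.1, 121 and 28.2 at week 12, and 31.3, 18.2, 43.9, 90.5 and 53.3 at week 18. At week 12 it was higher in 3 animals and lower in 2, and its fitted difference changed sign with the block, from 0.15 ± 0.57 without it to −0.08 ± 0.30 with it (SE, edgeR). *EGR2* ranged from 7.58 to 47.3 CPM and was likewise higher in 3 animals and lower in 2 at week 12. *EGR3*, which was not tested, had 0, 1.69, 0.238, 1.11 and 0.456 CPM at pre-treatment, at most 0.184 CPM at week 12 and at most 0.388 at week 18, from 0 to 15 counts per library.

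The NR4A genes encode orphan nuclear receptors that T cells and monocytes induce on activation. *NR4A1* had 41.7, 52.2, 60.4, 75.9 and 40.7 CPM at pre-treatment, 29.9, 23.9, 54.8, 51.2 and 66.9 at week 12, and 47.9, 22.9, 41.6, 54.4 and 69.9 at week 18. It was lower in 4 of 5 animals at week 12 and in 3 at week 18 (edgeR block adjusted p = 0.982 and adjusted p = 0.903). *NR4A2* had 23.9, 27.1, 22.2, 20.5 and 20.6 CPM at pre-treatment, 18.8, 20.1, 21.3, 31.1 and 13.8 at week 12, and 14.9, 13.7, 9.95, 23.4 and 16.9 at week 18. It was lower in 4 of 5 animals at week 18, with a log2 fold change of −0.54 ± 0.22 without the block (SE, edgeR adjusted p = 1) and −0.58 ± 0.19 with it (edgeR adjusted p = 0.584). Between week 12 and week 18 the values of *NR4A2* were −0.41 ± 0.22 (edgeR adjusted p = 1) and −0.41 ± 0.19 (edgeR block adjusted p = 1), and without Z15339 the block value was −0.25 ± 0.20 (SE, edgeR adjusted p = 1).

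*NR4A3* was measured on few reads. It had 1.64, 2.37, 1.07, 1.44 and 1.37 CPM at pre-treatment (9 to 21 counts), 2.49, 0, 0.441, 0.921 and 1.5 at week 12 (0 to 24 counts), and 0.259, 0.609, 0.447, 0.531 and 0.111 at week 18 (1 to 5 counts). The week 18 values lay below all pre-treatment values. The log2 fold change at week 18 was −2.0 ± 0.69 without the block (SE, edgeR adjusted p = 1) and −1.98 ± 0.66 with it (edgeR adjusted p = 0.584). At counts this low the gene passed the filter through the groups where it was higher, and the size of its difference is poorly determined.

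Of the 14 other immediate early genes, *DUSP5*, which encodes a nuclear phosphatase of ERK, had the largest fitted decrease at both time points. It had 68.5, 24.6, 34.7, 30.7 and 17.4 CPM at pre-treatment, 40.6, 8.06, 24.6, 27.3 and 13.5 at week 12, and 37.1, 8.78, 18.9, 32.8 and 11.5 at week 18. It was lower in 5 of 5 animals at week 12 and in 4 of 5 at week 18, with Z15303 the exception, while the animals differed from each other by more than the time points did. At week 12 the log2 fold change was −0.63 ± 0.46 without the block (SE, edgeR adjusted p = 1) and −0.68 ± 0.18 with it (edgeR adjusted p = 0.442; DESeq2 block adjusted p = 0.127). At week 18 it was −0.70 ± 0.46 (edgeR adjusted p = 1) and −0.76 ± 0.18 (edgeR block adjusted p = 0.185), with an adjusted p of 0.0279 in DESeq2's block test. In DESeq2's block test without 1 animal, *DUSP5* was called at week 18 only when Z15303 was the one left out (adjusted p = 0.0015), and the adjusted p reached 0.429 without Z15228. The study's supplement lists *DUSP5* as differentially expressed in these same libraries, so its call is not independent evidence. With the B-cell marker score as a term the edgeR block values were −1.14 ± 0.30 at week 12 and −1.25 ± 0.31 at week 18 (SE, adjusted p = 1 at both). As for *NFKBIZ*, this fit separates the score poorly from the time point, so the change in size is not interpreted.

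*KLF4* and *KLF10*, which encode Krüppel-like factors, had an unadjusted p under 0.05 for a lower level at week 12 in the block fit, and neither passed after adjustment. *KLF4* had 72.5, 106, 85.1, 116 and 103 CPM at pre-treatment, 61.9, 48.4, 80.5, 76.4 and 96.3 at week 12, and 108, 64.7, 90.8, 78.4 and 115 at week 18. The log2 fold change of *KLF4* at week 12 was −0.41 ± 0.19 without the block (SE, edgeR adjusted p = 1) and −0.44 ± 0.16 with it (edgeR adjusted p = 0.769), and from week 12 to week 18 it was 0.35 ± 0.16 (edgeR block adjusted p = 1), higher in 5 of 5 animals. Without Z13076 the block value at week 12 was −0.26 ± 0.15 (SE, edgeR adjusted p = 0.576), and without Z15228 that from week 12 to week 18 was 0.22 ± 0.16 (SE, edgeR adjusted p = 1). *KLF4* is also expressed in monocytes. At week 12 it was lower in 5 of 5 animals, with within-animal differences of −0.23, −1.12, −0.08, −0.60 and −0.10 log2 CPM. The monocyte marker sum was lower in 3 animals and higher in Z15339 (2240 to 2290 CPM) and Z15408 (3350 to 3650 CPM), where *KLF4* differed least. A link between them was not tested. With the monocyte marker score as a term the edgeR block values of *KLF4* were −0.37 ± 0.14 at week 12 and 0.14 ± 0.16 from week 12 to week 18 (SE). *KLF10* had 65.5, 45.1, 54.6, 47.8 and 76.9 CPM at pre-treatment, 44, 45.9, 55.7, 23.8 and 49.7 at week 12, and 69.2, 40.2, 48.5, 25.7 and 63.2 at week 18. Its week 12 log2 fold change was −0.40 ± 0.25 without the block (SE, edgeR adjusted p = 1) and −0.42 ± 0.15 with it (edgeR adjusted p = 0.769), with Z15228, Z15303 and Z15408 lower and the other animals level or slightly higher. Without Z15303 it was −0.27 ± 0.15 with the block (SE, edgeR adjusted p = 0.998).

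2 members of this group had an unadjusted p under 0.05 for a higher level at week 18, and neither passed after adjustment. *IER2*, an early gene of unsettled function, had 286, 396, 275, 438 and 282 CPM at pre-treatment, 432, 247, 364, 451 and 316 at week 12, and 365, 552, 347, 531 and 499 at week 18, higher than before treatment in 5 of 5 animals. Its week 18 log2 fold change was 0.45 ± 0.19 without the block (SE, edgeR adjusted p = 1) and 0.46 ± 0.16 with it (edgeR adjusted p = 0.641). Without Z13076, a setting chosen after seeing the data, *IER2* also had an unadjusted p under 0.05 in edgeR's block fit for a higher level at week 12. *KLF6* had 813, 824, 721, 810 and 740 CPM at pre-treatment, 826, 910, 771, 940 and 1120 at week 12, and 939, 718, 1100, 973 and 1040 at week 18. For *KLF6* the week 18 log2 fold change was 0.29 ± 0.13 without the block (SE, edgeR adjusted p = 1) and 0.28 ± 0.13 with it (edgeR adjusted p = 0.843), with Z13076 the animal that was lower.

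The remaining 9 of these genes had unadjusted p-values above 0.05 in every comparison in edgeR's fits of all 5 animals. Without Z13076 1 of them, *IER3*, had an unadjusted p under 0.05 in the block fit, higher at week 12 than before treatment and lower at week 18 than at week 12. *DUSP1* and *DUSP2*, phosphatases of MAP kinases, ranged from 1710 to 2840 and from 81.4 to 256 CPM. *ZFP36*, which encodes the mRNA decay factor tristetraprolin, ranged from 426 to 1260 CPM, and *BTG2*, an antiproliferative gene, from 181 to 450. *PPP1R15A*, which restores translation after stress, ranged from 183 to 314 CPM, *SGK1*, a kinase gene induced by serum and glucocorticoids, from 43.9 to 118, and *GADD45B*, a stress gene, from 28.1 to 83. *IER3* (0.962 to 19.5 CPM) and *IER5* (9.38 to 20.3 CPM) were among the lowest of the group in CPM, which are not scaled by gene length.

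The secreted and surface products gave no member with an unadjusted p under 0.05. *TNF*, the inflammatory cytokine, ranged from 4.11 to 20.3 CPM, and its log2 fold change in edgeR's block fit was −0.40 ± 0.24 at week 12 and 0.04 ± 0.23 at week 18 (SE). *CXCL8*, a neutrophil chemokine, ranged from 5.14 to 15.1 CPM. The activation marker *CD69* ranged from 86.3 to 200 CPM, *CD83* of mature dendritic cells and B cells from 22.3 to 50.2, the adhesion molecule *ICAM1* from 20.3 to 43.8, and the urokinase receptor *PLAUR* from 2.98 to 10.2. Their fitted differences ran in both directions in the block fit at both time points, and *PLAUR* had the highest value at week 12 (0.36 ± 0.24, SE).

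**Figure D3:**
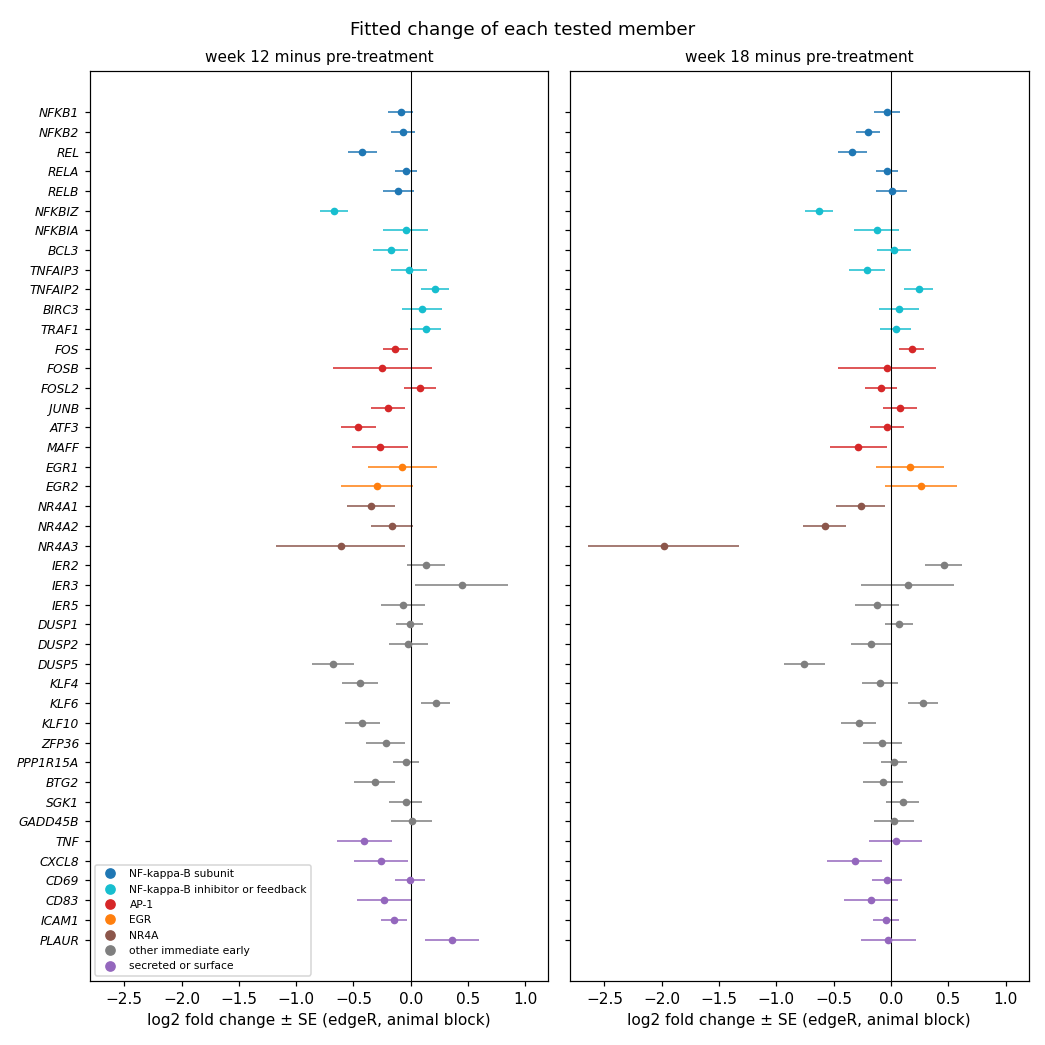
Log2 fold change of each of the 43 tested members against pre-treatment at week 12 (left) and week 18 (right), from edgeR's fit with the animal as a block (points, with SE bars). Colours mark the gene groups. Most points lie within 0.5 of 0. *NFKBIZ* and *DUSP5* lie near −0.7 in both panels, and *NR4A3*, on 1 to 21 counts, has the lowest value at week 18.

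The NF-kappa-B genes and the AP-1, EGR and NR4A genes were set side by side by their medians. The median log2 fold change in edgeR's fit without the block at week 12 was −0.06 over the 12 NF-kappa-B genes, −0.20 over the 11 AP-1, EGR and NR4A genes and −0.12 over all 43 members, against 0.00 over all features. At week 18 these medians were −0.04, −0.03 and −0.04, against 0.00. Between week 12 and week 18 they were 0.00, 0.07 and 0.06, against −0.003. Among the 12 NF-kappa-B genes, 8 had a negative value at week 12 and 7 at week 18, and among the 11 others 9 and 6 did.

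The week 12 median of the AP-1, EGR and NR4A genes rested largely on 1 animal. The median within-animal difference of log2 CPM over these 11 genes was −1.12 in Z13076 and −0.15, −0.06, −0.02 and −0.20 in Z15228, Z15339, Z15303 and Z15408. Without Z13076 the fitted median was −0.03, and that over all members was 0.01. Over the NF-kappa-B genes the medians were −0.26 in Z13076 and −0.03, −0.01, −0.22 and 0.16 in the others, in the same order. At week 18 the AP-1, EGR and NR4A median was −0.67 in Z13076 and between −0.20 and 0.20 in the other animals.

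**Figure D4:**
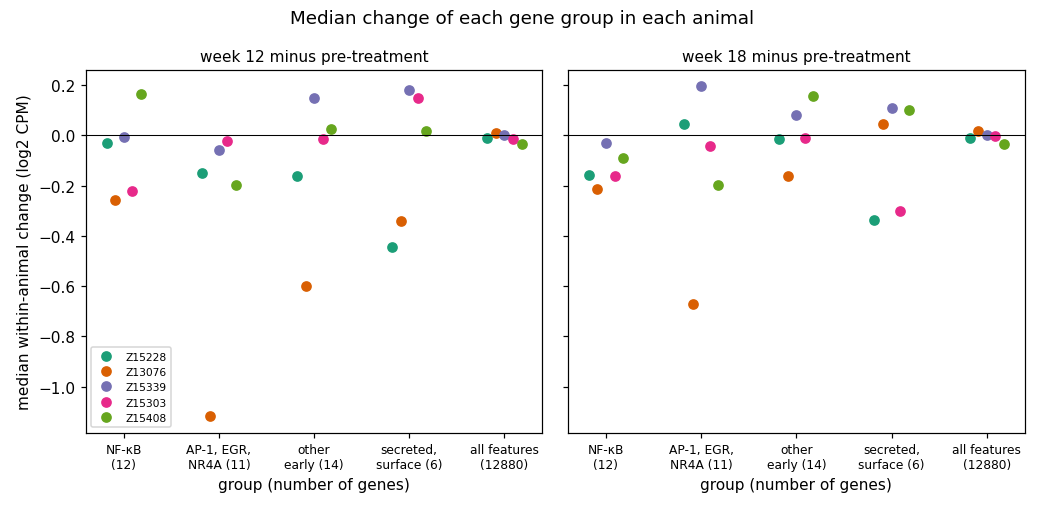
Median within-animal difference of log2 CPM against pre-treatment (vertical axis) for 4 groups of members and for all 12880 features tested (horizontal axis, with the number of genes), at week 12 (left) and week 18 (right). Each point is 1 animal. Z13076 lies at −1.12 for the AP-1, EGR and NR4A genes at week 12, and the other animals lie between −0.20 and −0.02.

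In Z13076, 20 of the 43 members were at least 1.5-fold lower at week 12 than before treatment, against 11.6% of all features in that animal, and 0 were at least 1.5-fold higher, against 11.8%. *NR4A3* had 21 counts before treatment and 0 at week 12 in this animal, so that its difference is set by the prior count. *FOSB* and *IER3* had within-animal differences of −2.38 and −2.15 on the log2 scale, and *EGR2*, *TNF*, *EGR1* and *DUSP5* lay between −1.93 and −1.58. In the other animals 3 members were at least 1.5-fold lower in Z15228 (8.7% of all features), 1 in Z15339 (6.4%), 3 in Z15303 (11.9%) and 6 in Z15408 (11.5%). The 1 in Z15339 was *NR4A3*, on 9 counts before treatment and 4 at week 12. At least 1.5-fold higher at week 12 were 4 members in Z15228 (6.09%), 2 in Z15339 (5.43%), 6 in Z15303 (12.1%) and 5 in Z15408 (11.1%). The monocyte marker sum of Z13076 was 4290 CPM at pre-treatment, 2720 at week 12 and 5450 at week 18, and its part in these differences was not tested. At week 18, 13 members were at least 1.5-fold lower in Z13076 (7.35% of all features), 9 in Z15228 (9.55%), 4 in Z15339 (6.68%), 4 in Z15303 (11.4%) and 6 in Z15408 (13.1%). *NR4A3*, on 1 to 5 counts per library at week 18, is among the lower members in each animal. It passed the filter on low counts through the groups where it was higher. At least 1.5-fold higher were 0 in Z13076 (8.18%), 5 in Z15228 (6.23%), 6 in Z15339 (6.68%), 1 in Z15303 (10.4%) and 5 in Z15408 (11.1%).

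**Figure D5:**
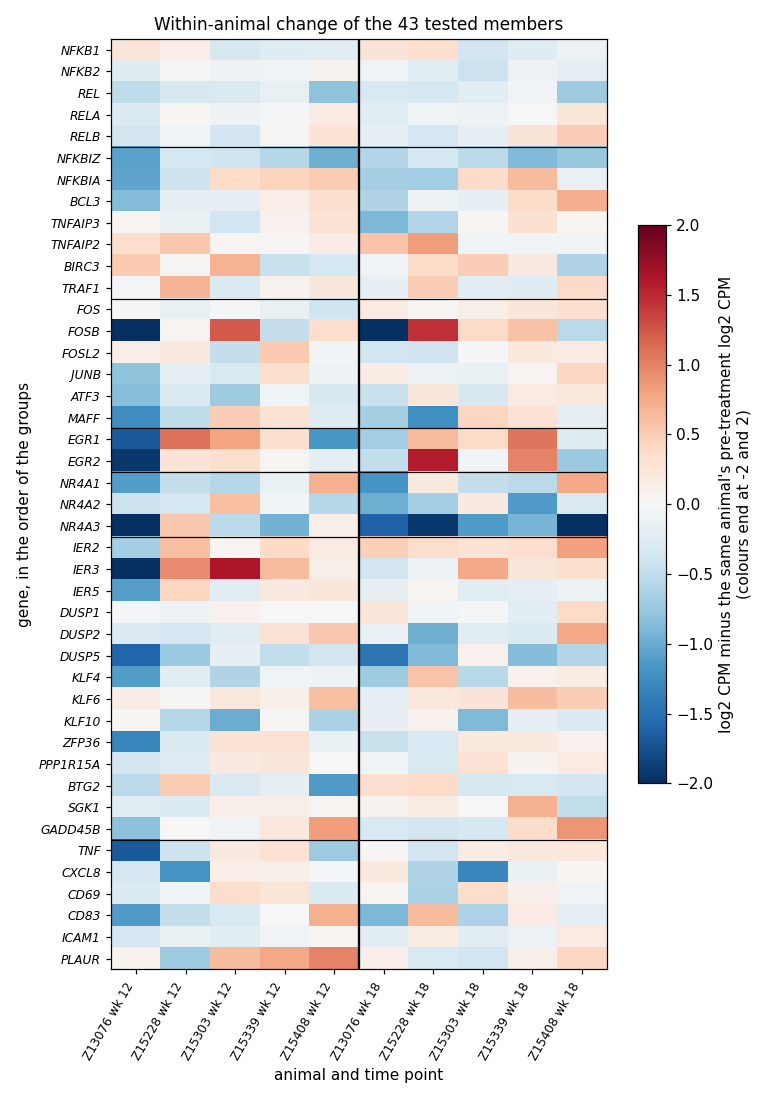
Within-animal difference of log2 CPM against pre-treatment for the 43 tested members (vertical axis, in the order of the gene groups, which thin lines separate) in each animal at week 12 (left of the thick line) and week 18 (right). Blue is lower and red is higher, and the colours end at −2 and 2. The Z13076 column at week 12 holds the most blue cells, and *NFKBIZ* is blue in all 10 columns.

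Against the median of the other members, *NFKBIZ* was the lower in every animal at both time points. The study named *NFKBIZ* from these same libraries, so this contrast is not independent evidence. At week 12 its within-animal difference minus the median of the other 42 members was −0.20 in Z15228, −0.61 in Z13076, −0.63 in Z15339, −0.32 in Z15303 and −1.0 in Z15408. At week 18 these values were −0.26, −0.38, −0.99, −0.46 and −0.82. *NFKBIZ* was not the lowest member in any animal at either time point. Counted from the lowest, it was 11 of 43 in Z15228, 14 in Z13076, 2 in Z15339, 7 in Z15303 and 3 in Z15408 at week 12. At week 18 it was 13, 13, 3, 6 and 2 of 43 in the same order of animals.

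The members as a whole varied more among libraries than a typical feature. The median standard deviation between animals before treatment was 0.356 log2 units over the 43 members and 0.312 over all 12880 features, and the residual within-animal standard deviation was 0.314 against 0.253. *NR4A3*, *FOSB*, *IER3*, *EGR2* and *EGR1* had the largest within-animal values (0.992 to 0.651), and *RELA* and *NFKB2* the smallest (0.103 and 0.109). *NFKBIZ* had 0.204.

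The upstream parts of both pathways were read from 2 further lists. Of 34 NF-kappa-B signalling genes, all tested, 4 were lower at week 12 with an unadjusted p under 0.05 in edgeR's block fit (3.25% of all features were) and 0 were higher (1.44%), and 0 were called after adjustment. *PELI1*, a ubiquitin ligase of Toll-like receptor signalling, had a mean of 108.6 CPM (SD 8.99) at pre-treatment and 86.1 (SD 15.5) at week 12 over 5 animals, with a log2 fold change of −0.35 ± 0.11 (SE, edgeR adjusted p = 0.627), lower in 5 of 5 animals. *TBK1*, an IKK-related kinase, had −0.46 ± 0.15 (edgeR adjusted p = 0.696), *TAB3*, an adaptor of the TAK1 kinase, −0.42 ± 0.19 (edgeR adjusted p = 0.978), and *TRAF3*, a brake on the alternative pathway, −0.32 ± 0.15 (edgeR adjusted p = 0.982). At week 18, *PELI1*, *TBK1* and *TAB3* again had lower values at an unadjusted p under 0.05 (3.78% of all features did), in 4, 4 and 3 of 5 animals. *TNFRSF1A*, a receptor of TNF, was the 1 gene of the list with a higher value at this threshold (2.07% of all features), with a log2 fold change of 0.28 ± 0.13 (SE, edgeR adjusted p = 0.825), higher in 3 of 5 animals. Of 38 genes of MAPK, SRF and CREB signalling, 34 were tested. None had an unadjusted p under 0.05 at week 12 or between week 12 and week 18 in edgeR's block fit, and at week 18 *EP300*, a histone acetyltransferase, had a log2 fold change of −0.22 ± 0.10 (SE, edgeR adjusted p = 0.825), 1 of 34 genes where 3.78% of all features were lower at that threshold. The list medians in the block fit were −0.06 for both lists at week 12 and −0.04 and −0.09 at week 18.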

How the data were processed

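The authors aligned the reads with STAR 2.7.9a to the *Macaca nemestrina* genome of Ensembl release 95 and deposited raw read counts per gene (STAR quantMode GeneCounts), with no normalization or filter. The strand column used is not given in the sources used here, and the SMART-Seq and Nextera XT kits do not mark strand, so overlapping genes on opposite strands cannot be told apart. The 15 libraries were grouped by their time point label and paired by the animal label.

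Counts were analysed in R 4.3.3 with edgeR 4.0.16 (TMM, filterByExpr with a minimum count of 10, quasi-likelihood F test, 12880 features, time point as the only term), with Benjamini-Hochberg adjustment over all features. Standard errors are the size of the log2 fold change over the root of its F statistic. CPM are TMM-scaled, and log2 CPM used a prior count of 2. The animal was added as a block because libraries of the same animal are paired by label. Their deviations from the time point means had a mean correlation of 0.551 (0.351 to 0.683, 15 pairs), against −0.137 for different animals and time points (60 pairs), and the block lowered the common biological coefficient of variation from 29.3% to 16.9%. Alternatives were DESeq2 1.42.0, limma-voom (limma 3.58.1), other scalings and filters, marker scores as covariates, and leaving out each animal. The scripts were tested on simulated data. With 5 animals, p-values without the block rest on the spread between the libraries of these animals only. With the block they rest on the spread left within these animals, and the sign-flip p on their within-animal differences.

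The members and gene lists were chosen with earlier results of these data known. Statistics are given for *NFKBIZ* and for members with an unadjusted p under 0.05 in edgeR's fit with or without the block. Single values are also given for some other members, chosen after their values were seen. CPM per animal are given for these, for the subunits, and for the main inhibitors and AP-1, EGR and NR4A genes, and other members are given by range. Adjusted p-values are printed. Genes from outside the list come from the 2 signalling lists. T cell, NK cell, platelet, red cell, neutrophil and dendritic cell marker sums were also computed. Of these, T cell sums were lower than before treatment in 0 of 5 animals at week 12 and 1 at week 18, NK cell sums in 3 and 3, platelet sums in 1 and 2, red cell sums in 4 and 3, neutrophil sums in 4 and 2, and dendritic cell sums in 5 and 3. No promoter or protein sequences were used here.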

Additional observations from a re-analysis of the deposited data

Results flagged for a closer look

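In 10 of the 129 sets of 5 values (43 members at 3 time points), the highest or lowest animal stood further from the others than Dixon's 95% limit for 5 values. Chance alone gives about 1 in 20 such sets, and the sets are not independent, since the same animals recur. Z15303 was high for *REL* at week 12 (29.8 CPM, next 20.3) and at week 18 (31.3, next 21.5), for *BIRC3* at week 18 (75.3, next 43.7), and for *IER3* at week 12 (19.5, next 4.56) and week 18 (10.6, next 3.9). Z15408 was high for *FOS* before treatment (1200 CPM, next 931) and at week 18 (1520, next 1020). Z15228 was high for *RELB* before treatment (34.4 CPM, next 27.4) and for *CD83* at week 18 (50.2, next 27.4). Z13076 was high for *FOSB* before treatment (28.5 CPM, next 15.5).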

How the results depend on the processing

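The number of features called was 0 in edgeR's test without the block in all 3 comparisons. With the replicate block, which pairs the libraries of an animal, it was 1 at week 12 and 1 at week 18. It was 1 at week 12 with DESeq2 without the block, 1 at both time points with limma-voom and the block, and 1 at week 18 with the block and the monocyte score. DESeq2 with the block called 27 features at week 12, 43 at week 18 and 1 between the later time points, with 1 member at week 12 and 2 at week 18. Leaving out each animal in turn gave 0 to 6 features at week 12 and 0 to 17 at week 18 with edgeR's block, and 0 to 1 between the later time points with DESeq2's block (chosen after seeing the data). DESeq2's block called 18, 32, 8, 13 and 41 features at week 12 and 9, 67, 32, 19 and 50 at week 18 without Z15228, Z13076, Z15339, Z15303 and Z15408. Members called then ranged from 1 to 2 at week 12 and from 0 to 2 at week 18 with DESeq2, and from 0 to 1 at week 18 with edgeR. *NFKBIZ* had a DESeq2 block adjusted p of 0.00364 to 0.0308 at week 12 without 1 animal and of 0.00158 to 0.0865 at week 18, where it was not called without Z15339. With edgeR's block its adjusted p was 0.152 to 0.504 and 0.0493 to 0.37, and it was called at week 18 without Z13076. Its difference between week 12 and week 18 lay between −0.067 and 0.13 (−0.067 to 0.11 without 1 animal and without the block). It turned negative with the monocyte score (−0.046), without Z13076 (−0.067 without the block, −0.063 with it and −0.064 with DESeq2) and without Z15408 (−0.032, −0.001 and 0.000). The within-animal mean was −0.077 in the 3 animals that share dates and −0.06 to 0.14 without 1 animal. The cause was not tested. The group medians moved by less than their spread over animals under the settings tried, except that of the NF-kappa-B genes at week 18 without Z13076 (0.037) or Z15408 (−0.112) and that of the AP-1, EGR and NR4A genes between week 12 and week 18 without Z15303 (0.279). Without 1 animal they ranged at week 12 from −0.10 to 0.01 (NF-kappa-B genes), −0.33 to −0.03 (AP-1, EGR and NR4A genes) and −0.18 to 0.01 (all members), at week 18 from −0.112 to 0.037, −0.11 to 0.04 and −0.11 to 0.03, and between them from −0.03 to 0.02, −0.01 to 0.28 and 0.01 to 0.07. Of 449 values of named genes under alternatives, 427 kept their direction and side of the threshold, 15, all of *NFKBIZ* or *DUSP5*, came past it and 7, all of *NFKBIZ* between week 12 and week 18, turned sign. Genes with few reads, such as *NR4A3* and *EGR3*, are limited by depth.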
